A study of Mus musculus with 19 samples.

Results

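Matricellular and rapidly induced vascular genes were followed in bulk RNA from mouse medial prefrontal cortex. The set held 10 genes of the 57010 in the deposited count table: Ccn1, Ccn2, Thbs1, Apold1, Cebpd, Klf2, Klf4, Klf10, Btg2 and Ier2. They were chosen by symbol, as genes that were lower in mice given sedanolide alone than in saline controls, so that contrast is described here and not tested. All 10 passed the filter on low counts, with 17757 genes tested. The mice were wild type (WT), and poly(A) RNA of the whole tissue was sequenced in 4 groups. The co-treated group (5 libraries) had sedanolide, a phthalide of celery, by gavage at 20 mg/kg on 8 days, and on the last 5 of those days lipopolysaccharide (LPS, a bacterial cell wall component that sets off inflammation) by intraperitoneal injection at 1 mg/kg. The LPS group (5 libraries) had the same injections with saline by gavage. The sedanolide group (5 libraries) had the same gavage with saline injections. The control group (4 libraries, numbered 1, 2, 4 and 5) had saline by both routes, and its replicate 3 was not analysed here. Whether each library stands for 1 mouse is not stated by the labels, and the p-values therefore describe spread between libraries that may be technical.

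Immediate-early genes are transcribed within minutes of a stimulus from factors already present in the cell. CCN1, CCN2 and thrombospondin 1 are matricellular proteins, which are secreted into the extracellular matrix and signal through integrins and other receptors instead of serving as scaffold. In many cell types CCN1 and CCN2 are transcribed by YAP and TAZ with TEAD factors and by SRF with its coactivator MRTF, in response to stretch, growth factors and G protein signals. APOLD1 is an endothelial early response protein of the apolipoprotein L domain family. KLF2 and KLF4 are the zinc finger factors that shear stress induces in endothelium, and KLF10 is a TGF-beta-induced member of the same family. C/EBP-delta is an acute-phase and cytokine-induced transcription factor, BTG2 is an antiproliferative cofactor of mRNA deadenylation, and IER2 is a small nuclear immediate-early protein. Most of these genes are also transcribed outside vessels, in astrocytes and neurons among others.

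Libraries held 19.1 to 24.3 M counts (mean 22.2 M, n = 19), of which 5.50% to 11.8% were mitochondrial. Levels are given as counts-per-million (CPM) values on library sizes scaled by the trimmed mean of M values (TMM). Markers of excitatory cortical neurons summed to between 2680 and 8239 CPM, so the labelled tissue carried its defining transcripts in every library. Transcripts of the olfactory bulb set some libraries apart. The projection neuron marker Cdhr1 had 57.7 to 445 CPM in LPS replicates 2, 3 and 4, sedanolide replicates 3 and 4 and control replicates 1 and 5, 7 in all, here termed bulb-rich. The remaining 12, termed bulb-poor, had 2.29 to 9.92 CPM and include every co-treated library. Bulb-poor values stand beside many of the results that they change, and the values that changed sign in those libraries are listed near the end.

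Promoter sequence was available for 5 of the genes in the RefSeq table of build GRCm38.p6 (Ccn1, Apold1, Klf2, Klf4 and Btg2, 250 bases before the annotated start). The cAMP response element (CRE) half-site TGACG, searched on both strands, was present in all 5 windows and in 17.8% of 32851 promoter windows of the same length. The TEAD half-site GGAATG was found in the Ccn1 window alone of the 5 and in 12.6% of all windows. The AP-1 site TGANTCA (6.75% of all windows) and the CArG box of SRF (1.47%) matched none of the 5, and the KLF/SP box CCACCC matched Klf2 and 28.1% of all windows. The Ccn1 and Btg2 windows, on the minus strand at chr3:145649986-145650235 and chr1:134079156-134079405, are shown whole because these genes had the lowest adjusted p-values in LPS mice against controls. Capitals mark the TEAD half-site and then the CRE half-site in Ccn1, each on the opposite strand of the gene, and the full CRE palindrome in Btg2, which was present in 1.55% of all windows and was chosen after its match was seen. The Klf2 and Klf4 stretches, 30 bases each from chr8:72318812-72318841 on the plus strand and chr4:55532690-55532719 on the minus strand, have the CRE half-site in capitals and show it farther from the start, in either orientation.
Ccn1: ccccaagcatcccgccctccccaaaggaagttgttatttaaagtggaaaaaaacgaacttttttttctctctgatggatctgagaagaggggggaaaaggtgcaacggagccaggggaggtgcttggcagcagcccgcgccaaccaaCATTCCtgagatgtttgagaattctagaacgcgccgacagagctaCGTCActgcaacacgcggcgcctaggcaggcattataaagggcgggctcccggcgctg
Btg2: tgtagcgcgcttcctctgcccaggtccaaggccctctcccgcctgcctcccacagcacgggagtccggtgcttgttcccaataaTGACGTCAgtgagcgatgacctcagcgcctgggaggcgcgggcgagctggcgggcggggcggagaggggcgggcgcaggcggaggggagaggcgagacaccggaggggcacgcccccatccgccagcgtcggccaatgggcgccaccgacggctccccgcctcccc
Klf2: ctggtttgtTGACGccgtcgccatagggac
Klf4: ctgcctggctggCGTCAcggcctggccccg
In Ccn1 the CRE half-site began 58 bases before the start and the TEAD half-site 103 bases before it. In Btg2 the CRE began 166 bases before the start, in Klf2 the half-site began 241 bases before it, in Klf4 232 and in Apold1 52. Sequence just past the start was found in a GENCODE transcript of the gene for Ccn1, Klf2 and Klf4, but not for Apold1 and Btg2. The distances in Apold1 and Btg2 therefore rest on the RefSeq start alone. A match is a run of letters, and no binding was measured.

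The values that chose the genes were those of sedanolide mice against controls. In that contrast 9 of the 10 fitted log2 changes were below 0, and Klf10 was at 0.31. In 6 genes (Ccn1, Ccn2, Thbs1, Klf2, Btg2 and Ier2) every sedanolide library lay below every control library, which was so for 3.56% of all genes tested. The largest fitted differences were those of Apold1 (-1.97), Cebpd (-1.60), Ccn1 (-1.53), Thbs1 (-1.47), Ccn2 (-1.45) and Btg2 (-1.08), followed by Klf2 (-0.80), Ier2 (-0.76) and Klf4 (-0.17). The rule sets no size, and Klf4 and Klf10 lie at or outside its edge. In bulk tissue, fewer cells of a type and less RNA per cell cannot be told apart in any value below.

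**Figure D1:**
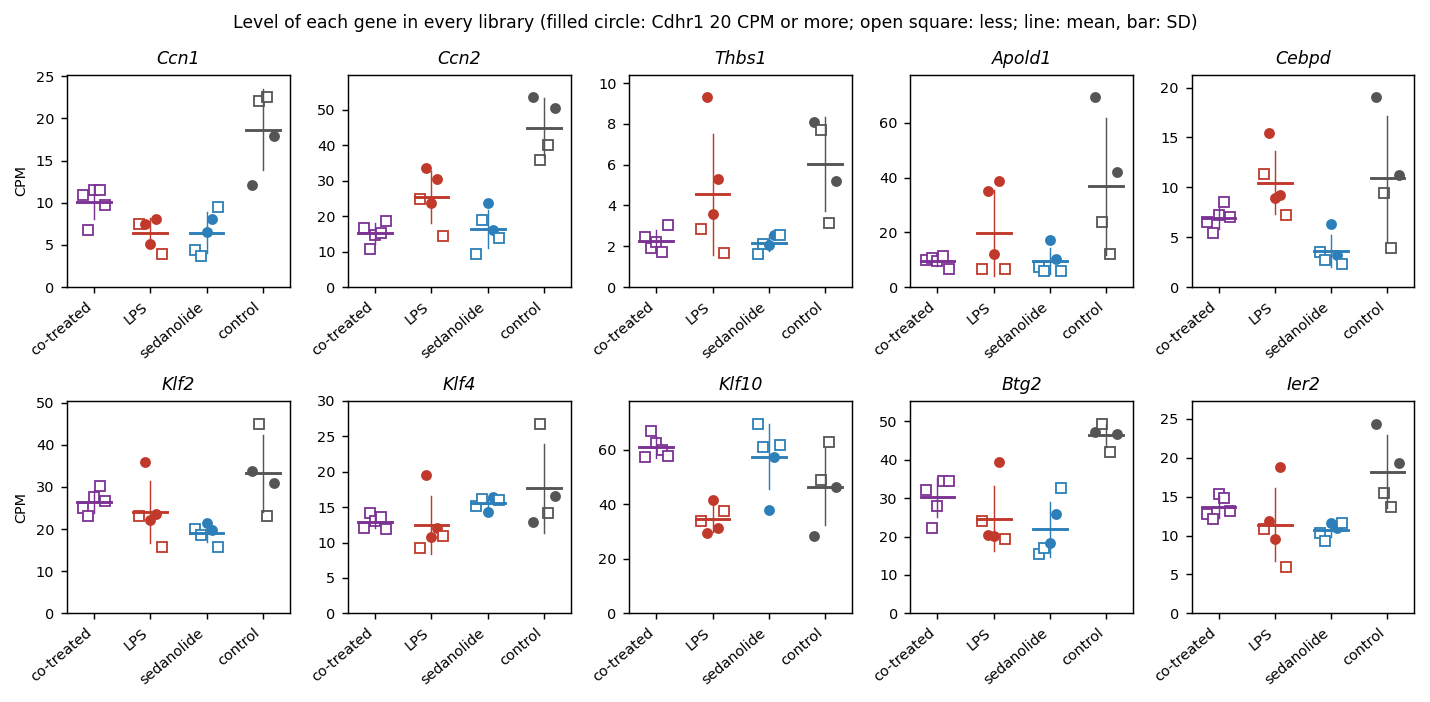
Level of each gene in CPM (linear axis from 0) in co-treated, LPS, sedanolide and control libraries, with 1 point per library and the group mean with its SD. Ccn2 sits between 10.6 and 18.5 CPM in co-treated libraries and between 35.8 and 53.5 CPM in control libraries, while Klf10 is higher in every co-treated library than in any LPS library.

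Sedanolide in mice given LPS was assessed by co-treated against LPS libraries, which are not in the contrast named by the rule. The genes were chosen with earlier results of these data known, so independence of this comparison from the choice is not assured. Klf10 alone passed the edgeR test over all libraries in this comparison. It was not lower after sedanolide alone (log2 change 0.31), so the rule does not account for its place in the set. It stood at 57.4, 67.0, 62.6, 59.9 and 57.6 CPM in co-treated libraries, against 33.8, 29.5, 41.6, 31.4 and 37.5 CPM in LPS libraries. The groups did not overlap, which in the upward direction was so for 3.33% of all genes. The group means were 60.9 ± 4.01 CPM in co-treated and 34.7 ± 4.85 CPM in LPS mice (SD, n = 5 each), a 1.75-fold difference (log2 change 0.81, SE 0.17, adjusted p = 0.0177, edgeR quasi-likelihood test with Benjamini-Hochberg adjustment over all genes tested). Calls at an adjusted p under 0.05 covered 0.287% of all genes as higher and 1.68% as lower. The Klf10 call was lost without LPS replicate 2 (log2 change 0.76, adjusted p = 0.0599) and with bulb marker level as a covariate (0.53, adjusted p = 0.0774). Within the bulb-poor libraries it was 0.79 (adjusted p = 0.0061), with 2 LPS libraries at 33.8 and 37.5 CPM.

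The matricellular genes did not pass the edgeR test over all libraries between co-treated and LPS mice, and they did not point one way. By limma-voom Ccn1 was called higher (0.90, adjusted p = 0.0061), and Ccn2 (-0.66, adjusted p = 0.0105) and Thbs1 (-0.69, adjusted p = 0.0495) lower. DESeq2 called Ccn2 alone of these, as lower (adjusted p = 0.0372). Ccn2, which encodes connective tissue growth factor, stood at 16.6, 10.6, 14.6, 15.3 and 18.5 CPM in co-treated libraries, against 24.9, 33.7, 23.6, 30.4 and 14.5 CPM in LPS libraries (log2 change -0.75, SE 0.23, adjusted p = 0.0993). LPS replicate 5 lay within the co-treated range and the other 4 LPS libraries above it. Without that replicate Ccn2 was called (-0.90, adjusted p = 0.0294), and within bulb-poor libraries its change was -0.37. Thbs1, the gene of thrombospondin 1, an activator of latent TGF-beta and a ligand of CD36 and CD47, was at 2.48, 1.89, 2.21, 1.72 and 3.06 CPM in co-treated libraries, against 2.87, 9.30, 3.58, 5.29 and 1.66 CPM in LPS libraries (-1.002, SE 0.35, adjusted p = 0.138). It is the lowest gene of the set, with 31 to 219 counts a library. Its 3 highest LPS values were those of the bulb-rich libraries, and the log2 change in bulb-poor libraries was 0.012, while without LPS replicate 5 it was -1.21 (adjusted p = 0.0439). Ccn1, the integrin ligand once named CYR61, had the opposite sign: 10.96, 6.73, 11.5, 11.5 and 9.70 CPM in co-treated libraries, against 7.43, 7.45, 5.14, 8.07 and 3.91 CPM in LPS libraries (0.65, SE 0.25, adjusted p = 0.174). Co-treated replicate 2 lay inside the LPS range and the other 4 above it.

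For the remaining genes, co-treated and LPS libraries also overlapped. Apold1 was at 9.76, 10.8, 9.45, 11.4 and 6.77 CPM in co-treated libraries, against 6.72, 34.9, 12.3, 38.9 and 6.48 CPM in LPS libraries (log2 change -1.04, SE 0.52, adjusted p = 0.272). The LPS spread was wide because of replicates 2 and 4, both bulb-rich, and within bulb-poor libraries the change was 0.55 (adjusted p = 0.456). Cebpd averaged 6.94 ± 1.14 CPM in co-treated and 10.4 ± 3.17 CPM in LPS mice (-0.59, adjusted p = 0.308). Klf2 and Klf4 had log2 changes of 0.14 and 0.05, Btg2 of 0.30 and Ier2 of 0.26, with adjusted p-values of 0.423 to 0.895. In all, 1 of the 10 genes was called higher and 0 lower, with 2 higher and 2 lower at an unadjusted p under 0.05. DESeq2 called 1 higher and 1 lower, and limma-voom 3 higher and 2 lower. Over all genes DESeq2 called 202 higher and 710 lower of 18199, and limma-voom 978 higher and 1669 lower of 17757. The share of all genes at an unadjusted p under 0.05 is not given here, for this or the later comparisons. The median log2 change of the set was 0.09, beside -0.01 over all genes tested.

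LPS against control shares its control libraries with the contrast that chose the genes, so their downward direction here is not independent of that choice. Of the 10 genes, 3 fell (Ccn1, Ccn2 and Btg2) and 0 rose. Calls covered 2.44% of all genes as lower and 8.47% as higher. All 10 fitted changes were below 0, with a median of -0.59 beside -0.00 over all genes. No gene of the set was higher at an unadjusted p under 0.05, by DESeq2 or by limma-voom, while 7 were lower at that unadjusted p, 4 by DESeq2 and 7 by limma-voom. Over all genes DESeq2 called 1649 higher and 666 lower of 22202, and limma-voom 2941 higher and 1562 lower of 17757.

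Ccn1 fell most in LPS mice. Its 5 LPS libraries (3.91 to 8.07 CPM) all lay below the control libraries, which had 12.2, 22.1, 22.5 and 17.9 CPM. The means were 6.40 ± 1.78 CPM in LPS (n = 5) and 18.6 ± 4.81 CPM in control mice (SD, n = 4), a ratio of 0.344 (log2 change -1.54, SE 0.27, adjusted p = 0.000455). Btg2 was at 24.1, 20.3, 20.0, 39.3 and 19.2 CPM in LPS libraries, against 47.2, 49.4, 42.1 and 46.8 CPM in control libraries. Control libraries were close together, LPS replicate 4 stood above its group, and the groups did not overlap (ratio 0.530, log2 change -0.91, SE 0.22, adjusted p = 0.00891). Ccn2 averaged 25.4 ± 7.33 CPM in LPS and 45.0 ± 8.39 CPM in control mice, with 53.5, 35.8, 40.1 and 50.5 CPM in the control libraries (ratio 0.565, log2 change -0.82, SE 0.24, adjusted p = 0.0319). These 3 genes had groups that did not overlap downward, as did 2.8% of all genes. Leaving out 1 library at a time kept Ccn1 and Btg2 called in all 19 fits. The Ccn2 call was lost in 5 of them, without LPS replicate 1, 3 or 5 or control replicate 1 or 5, with adjusted p up to 0.101. In bulb-poor libraries alone (2 LPS, 2 control) Ccn1 was called (-1.98, adjusted p = 0.0067) but Ccn2 (-0.96, adjusted p = 0.0942) and Btg2 (-1.10, adjusted p = 0.0531) were not. With the bulb covariate 6 genes were called lower, these 3 with Apold1, Klf10 and Ier2.

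The other 7 genes were not called in LPS mice by edgeR over all libraries. Ier2 was nearest, at 10.9, 11.9, 9.58, 18.8 and 5.90 CPM in LPS libraries, against 24.4, 15.5, 13.7 and 19.4 CPM in control libraries (log2 change -0.68, SE 0.22, adjusted p = 0.0567). LPS replicate 4 lay inside the control range, and Ier2 was called without that library (adjusted p = 0.0023), control replicate 2 (0.0457) or control replicate 4 (0.0389). The Krüppel-like factors had similar log2 changes, -0.46 for Klf2, -0.49 for Klf4 and -0.42 for Klf10, with adjusted p-values of 0.131, 0.119 and 0.153. Klf2 was at 23.1, 36.0, 22.2, 23.5 and 15.7 CPM in LPS libraries, against 33.7, 45.0, 23.0 and 31.0 CPM in control libraries. Both of its groups spread widely and overlapped. Without LPS replicate 2, Klf2 (-0.65, adjusted p = 0.0141) and Klf4 (-0.71, adjusted p = 0.0079) were called lower, as was Klf2 without control replicate 4 (adjusted p = 0.0497) and Klf10 without control replicate 1 (-0.60, adjusted p = 0.0134). In bulb-poor libraries Klf4 (-1.05, adjusted p = 0.0103), Klf10 (-0.66, adjusted p = 0.0049), Apold1 (-1.47, adjusted p = 0.0046) and Ier2 (-0.81, adjusted p = 0.0435) were called lower, on 2 LPS and 2 control libraries, and Thbs1 was at -1.28 there, against -0.41 over all libraries. Cebpd was at 11.4, 15.5, 8.92, 9.23 and 7.23 CPM in LPS libraries, against 19.03, 9.41, 3.93 and 11.2 CPM in control libraries (-0.07, SE 0.34, adjusted p = 0.934), and the 4 control libraries spanned the whole LPS range. Its change in bulb-poor libraries had the other sign, at 0.45 (adjusted p = 0.520).

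Both agents against saline again shared the control libraries with the choice of genes. The matricellular genes and Apold1 fell in co-treated mice, 4 of the 10, and 0 rose. Calls covered 4.69% of all genes as lower and 6.38% as higher, and 4.93% of genes had co-treated libraries that all lay below all controls. Klf10 alone was higher at an unadjusted p under 0.05, and limma-voom called that 1 gene higher where DESeq2 called 0. Over all genes limma-voom called 2728 higher of 17757 and DESeq2 1430 of 18199. Ccn2 averaged 15.1 ± 2.93 CPM in co-treated (n = 5) and 45.0 ± 8.39 CPM in control mice (SD, n = 4), with a log2 change of -1.57 (SE 0.24, adjusted p = 0.000293) that was called in all 19 fits that left out 1 library. Thbs1 averaged 2.27 ± 0.527 CPM in co-treated and 6.04 ± 2.31 CPM in control mice, whose libraries had 8.09, 7.70, 3.14 and 5.22 CPM (-1.41, SE 0.37, adjusted p = 0.0198). Ccn1 averaged 10.1 ± 2.00 CPM in co-treated and 18.6 ± 4.81 CPM in control mice (-0.89, SE 0.26, adjusted p = 0.0356). Apold1 averaged 9.63 ± 1.77 CPM in co-treated and 36.8 ± 24.9 CPM in control mice, whose libraries were at 69.3, 23.8, 12.1 and 42.0 CPM (-1.94, SE 0.55, adjusted p = 0.0316).

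These 4 genes and Btg2 had co-treated libraries that all lay below all controls. Btg2 was at 32.0, 22.2, 27.98, 34.4 and 34.3 CPM in co-treated libraries, against 42.1 to 49.4 CPM in control libraries. It did not pass the edgeR test over all libraries (log2 change -0.62, SE 0.22, adjusted p = 0.0725). Btg2 was called lower without LPS replicate 4 (adjusted p = 0.0339) and with only those groups in the fit (adjusted p = 0.0111). DESeq2 (adjusted p = 0.0407) and limma-voom (adjusted p = 0.0177) also called it lower. Of the called genes, Ccn1 lost its call in 8 of 19 fits that left out 1 library (adjusted p 0.0221 to 0.0799). Thbs1 lost it without co-treated replicate 4 (adjusted p = 0.0511) or control replicate 1 (0.0730). Apold1 lost it without any one co-treated replicate (0.0538 to 0.0704), control replicate 1 (0.159) or control replicate 5 (0.0811). Klf10 was the only gene above 0, at 0.39 (adjusted p = 0.160). Without control replicate 4 it was called higher (0.57, adjusted p = 0.0414) and Cebpd lower (-0.93, adjusted p = 0.0396). Cebpd was at -0.66 over all libraries (adjusted p = 0.209) and at 0.040 in bulb-poor libraries (adjusted p = 0.960). The set's median was -0.64 beside 0.01 over all genes. Within bulb-poor libraries the 4 called genes and Klf4 were called lower, with Apold1 at -0.91 (adjusted p = 0.0280). With the bulb covariate Ccn2 alone was called (-1.19), and Apold1 was at -0.58 (adjusted p = 0.226).

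LPS in mice given sedanolide was assessed by co-treated against sedanolide libraries, which share the sedanolide libraries with the choice of genes. None of the 10 was called by edgeR in either direction, against 5.09% of all genes called higher and 0.484% called lower. At an unadjusted p under 0.05, 4 genes were higher (Ccn1, Cebpd, Klf2 and Btg2) and 0 lower, and DESeq2 called 0 and limma-voom 3 as higher. Over all genes DESeq2 called 1016 higher of 20867 and limma-voom 2201 of 17757. Cebpd was at 6.51, 5.41, 7.24, 8.54 and 6.98 CPM in co-treated libraries, against 3.52, 2.69, 6.36, 3.19 and 2.28 CPM in sedanolide libraries (log2 change 0.94, SE 0.34, adjusted p = 0.135). Only sedanolide replicate 3, a bulb-rich library, reached the co-treated range, and Cebpd was called higher with the bulb covariate (1.29, adjusted p = 0.0024) and within bulb-poor libraries (1.31, adjusted p = 0.0081), without sedanolide replicate 3 (1.24, adjusted p = 0.0347) and without control replicate 4 (adjusted p = 0.0463). Klf2 was at 25.0, 23.1, 27.6, 30.2 and 26.6 CPM in co-treated libraries, against 19.9, 18.5, 21.5, 19.8 and 15.8 CPM in sedanolide libraries (0.47, adjusted p = 0.164). Klf2 and Ier2 had all co-treated libraries above all sedanolide libraries, as did 5.4% of all genes, and Klf4 had them all below, as did 1.82%. Klf4 was at 12.1, 14.1, 12.98, 13.7 and 11.98 CPM in co-treated libraries, against 15.2, 16.1, 14.3, 16.4 and 16.0 CPM in sedanolide libraries, a small difference between tight groups (-0.27).

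Placed side by side, the sedanolide difference was higher in the presence of LPS for every gene of the set. The difference between the 2 changes (co-treated minus LPS, less sedanolide minus control, on the log2 scale) was 2.18 for Ccn1, 1.38 for Btg2, 1.02 for Ier2, 1.01 for Cebpd, 0.93 for Klf2, 0.93 for Apold1, 0.71 for Ccn2, 0.50 for Klf10, 0.47 for Thbs1 and 0.23 for Klf4. It contains the contrast that chose the genes, so its sign is described without a test. In bulb-poor libraries it was larger for, among others, Ccn1 (2.77), Apold1 (2.07), Thbs1 (1.42), Klf2 (1.41), Ccn2 (1.10) and Klf4 (0.79). The low place of Thbs1 in this order was therefore not seen there. For Cebpd it was smaller there, with changes of 1.31 in co-treated against sedanolide and 0.45 in LPS against control. For Ccn2 and Thbs1 the fitted changes in mice given LPS, neither of them called by edgeR over all libraries, were -0.75 and -1.002 (-0.37 and 0.012 in bulb-poor libraries), and those in mice given saline were -1.45 and -1.47. For Ccn1 they were 0.65 in mice given LPS, also not called by edgeR, and -1.53 in mice given saline.

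**Figure D2:**
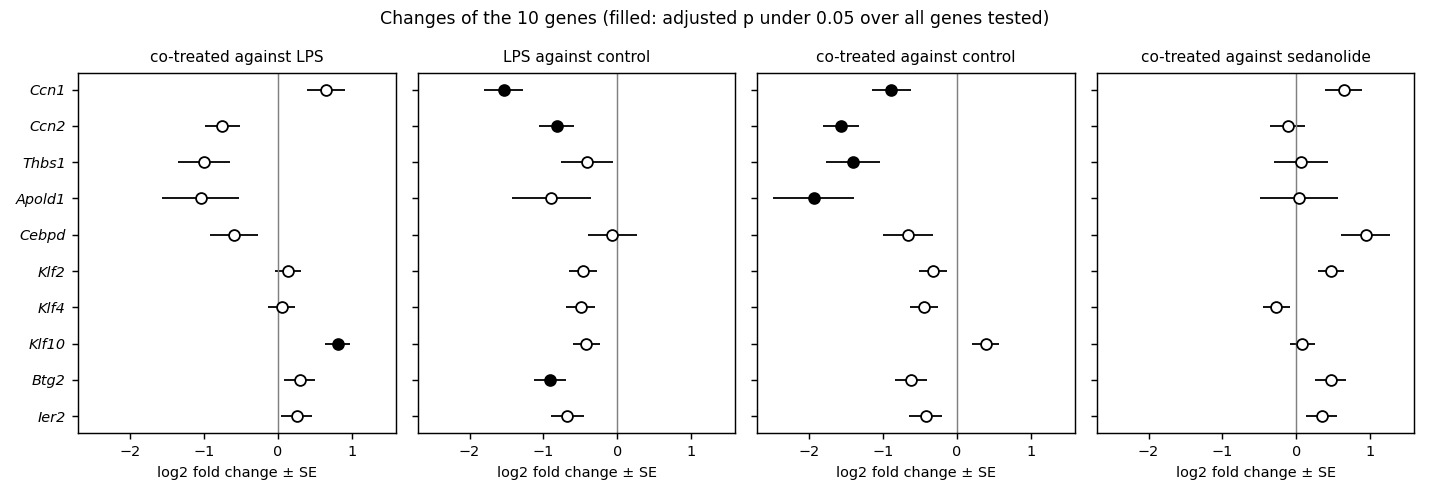
Fitted log2 change of each gene with its SE in the 4 tested comparisons (1 panel each, genes as rows). Filled markers are called at an adjusted p under 0.05: Klf10 in co-treated against LPS, 3 genes in LPS against control and 4 in co-treated against control.

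By mean level the groups ordered differently from gene to gene. Control had the highest mean for 9 of the genes, with a lead over the next group below the control SD for Thbs1, Apold1, Cebpd, Klf2, Klf4 and Ier2, and co-treated for Klf10 (60.9 ± 4.01 CPM in co-treated, 34.7 ± 4.85 in LPS, 57.5 ± 11.8 in sedanolide and 46.5 ± 14.1 in control libraries). Ccn1, Btg2 and Ier2 shared 1 order, control, co-treated, then LPS and sedanolide close together. Btg2 averaged 30.2 ± 5.17 CPM in co-treated, 24.6 ± 8.44 in LPS, 21.9 ± 7.20 in sedanolide and 46.4 ± 3.08 in control mice. Klf2 ran in the same sequence, at 33.2 CPM in control, 26.5 in co-treated, 24.1 in LPS and 19.1 in sedanolide mice. Ccn2, Thbs1, Apold1 and Cebpd shared another, with LPS next to control and both sedanolide-dosed groups lowest. For Thbs1 this order was not seen in bulb-poor libraries, which averaged 2.27 CPM in co-treated, 2.26 CPM in LPS, 2.09 CPM in sedanolide and 5.42 CPM in control mice. Nor was it seen there for Apold1 (6.60 CPM in LPS, 9.63 CPM in co-treated) or Cebpd (9.30 CPM in LPS, 6.67 CPM in control). Ccn2 averaged 15.1 ± 2.93 CPM in co-treated and 16.4 ± 5.42 CPM in sedanolide mice. For Apold1 the same 2 groups were also within their spread of each other, at 9.63 ± 1.77 CPM in co-treated and 9.37 ± 4.77 CPM in sedanolide mice.

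Each gene was also standardised over the 19 libraries (log2 of CPM plus 0.5) and averaged over the 10. This mean ran between -0.335 and 0.139 in co-treated libraries, between -1.117 and 0.544 in LPS libraries, between -0.748 and -0.3 in sedanolide libraries and between 0.399 and 1.299 in control libraries. LPS libraries spread most, with replicates 2 and 4 above and replicate 5 below the rest of their group. The genes did not move as 1 block within groups. Across 19 libraries, after subtraction of group means, Pearson's r was 0.69 for Ccn1 with Btg2, 0.71 for Apold1 with Cebpd, 0.77 for Apold1 with Ier2 and 0.76 for Thbs1 with Klf2. Klf10 went the other way, with r of -0.85 with Cebpd, -0.72 with Apold1 and -0.66 with Ccn2. All of these values share libraries and bulb content, and they are descriptions only.

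**Figure D3:**
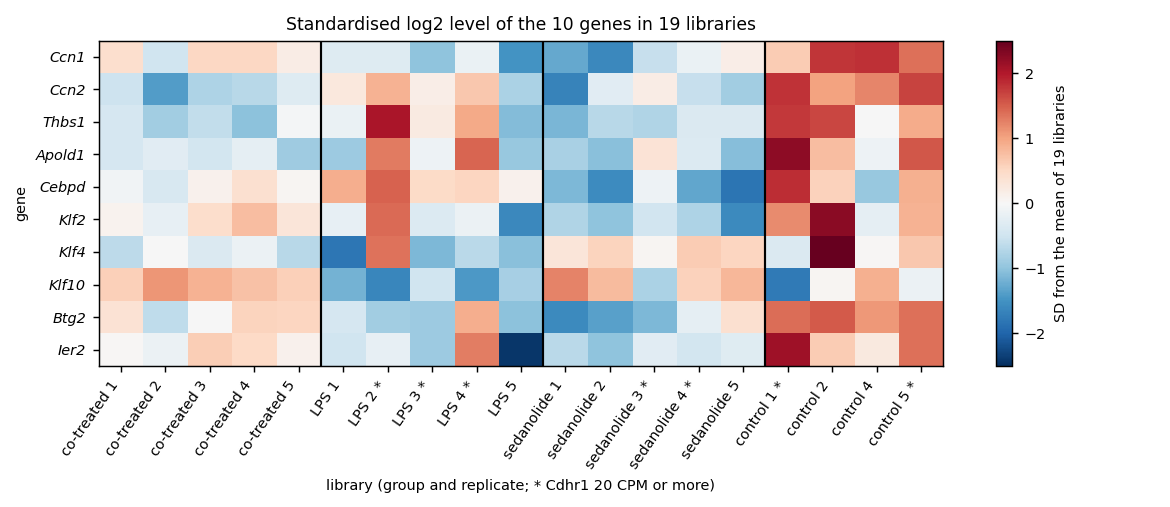
Standardised log2 level of the 10 genes (rows) in the 19 libraries (columns), grouped as co-treated, LPS, sedanolide and control, with bulb-rich libraries marked. Control libraries are high for most rows, while the Klf10 row is below 0 in all 5 LPS libraries, sedanolide replicate 3 and control replicates 1 and 5.

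Bulb content moved with some of these genes inside groups. Apold1 stood at 12.3 to 38.9 CPM in the 3 bulb-rich and at 6.48 and 6.72 CPM in the 2 bulb-poor LPS libraries. In sedanolide mice it was at 10.3 and 17.3 CPM in bulb-rich and 5.98 to 7.23 CPM in bulb-poor libraries, and in control mice at 42.0 and 69.3 CPM in bulb-rich and 12.1 and 23.8 CPM in bulb-poor libraries. In each of these 3 groups the bulb-rich libraries were all higher. Ccn1 showed the reverse in controls, at 12.2 and 17.9 CPM in bulb-rich and 22.1 and 22.5 CPM in bulb-poor libraries. Klf10 did so in controls (28.3 and 46.1 against 48.9 and 62.7 CPM) and in sedanolide mice (37.9 and 57.2 against 60.9 to 69.6 CPM). In LPS mice Klf10 overlapped, at 29.5 to 41.6 CPM in bulb-rich and 33.8 and 37.5 CPM in bulb-poor libraries. Ccn2 in controls was higher in bulb-rich libraries (50.5 and 53.5 against 35.8 and 40.1 CPM) and overlapped in LPS and sedanolide mice. Bulb marker sums were 3.04 to 8.02 CPM in co-treated, 8.15 to 292 CPM in LPS, 4.30 to 328 CPM in sedanolide and 7.66 to 719 CPM in control libraries, and their part in the group differences beyond the fits above was not tested.

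Markers of vessel cells were high in LPS libraries, where Ccn1, Ccn2 and Btg2 were low. All 10 endothelial markers rose in LPS mice (median log2 change 0.99), as did 8.47% of all genes. In co-treated against LPS mice 3 of 10 fell (median -0.42), as did 1.68% of all genes. In bulb-poor libraries 6 of the 10 were called higher in LPS mice and none lower in co-treated against LPS mice (medians 0.84 and -0.39), and without LPS replicate 2 1 was called lower in co-treated against LPS mice. Their summed level was 486 to 632 CPM in co-treated, 682 to 841 CPM in LPS, 395 to 468 CPM in sedanolide and 342 to 535 CPM in control libraries. Pericyte and smooth muscle markers summed to 317 to 453 CPM in co-treated, 448 to 662 CPM in LPS, 252 to 333 CPM in sedanolide and 270 to 430 CPM in control libraries. Fibroblast markers of perivascular space and meninges summed to 108 to 137 CPM in co-treated, 116 to 302 CPM in LPS, 122 to 172 CPM in sedanolide and 117 to 278 CPM in control libraries, and the median log2 change of these 9 markers was -0.91 in co-treated against LPS (0.07 in bulb-poor libraries) and -1.07 in sedanolide against control mice. Neutrophil markers summed to 6.46 to 21.9 CPM in co-treated, 33.0 to 48.1 CPM in LPS, 0.440 to 2.24 CPM in sedanolide and 1.16 to 7.57 CPM in control libraries, with Ly6g at 0 in every sedanolide library. Erythroid markers summed to 28.5 to 96.8 CPM in co-treated, 2.63 to 182 CPM in LPS, 94.4 to 232 CPM in sedanolide and 192.9 to 289.6 CPM in control libraries, so control libraries lay above all co-treated and LPS libraries. The median log2 change of the 6 erythroid markers tested was -1.63 in LPS against control and -1.76 in co-treated against control mice. Choroid plexus and ependyma markers had a median of -1.35 in co-treated against LPS mice. The part of these cells in the levels of the 10 genes was not tested.

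Related genes were read from lists that were drawn up with earlier results of these data known. Over all genes tested, 8.47% were called higher and 2.44% lower in LPS against control. The shares were 0.287% higher and 1.68% lower in co-treated against LPS. Counts of this and the following lists stand beside these shares, and no list was tested as a set. Among 18 other matricellular genes tested, 2 fell in co-treated against LPS mice (median log2 change -0.49) and 2 rose in LPS mice (median -0.08). Tgfbi, a TGF-beta-induced integrin ligand, averaged 5.41 ± 0.749 CPM in co-treated, 13.3 ± 4.93 CPM in LPS and 5.44 ± 2.13 CPM in control mice (-1.29, adjusted p = 0.0106, co-treated against LPS; 1.28, adjusted p = 0.0030, LPS against control). Sparc, the collagen-binding osteonectin, rose to 567.7 ± 87.0 CPM in LPS mice, against 288.2 ± 77.6 CPM in control mice (0.98, adjusted p = 0.000339). Tnxb, which encodes the tenascin X of connective tissue, was the other that fell in co-treated against LPS mice (-1.23, adjusted p = 0.0499). Neither Tgfbi nor Sparc went down in LPS mice as Ccn1 and Ccn2 did.

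Of 21 YAP and TAZ target genes tested, 5 rose and 1 fell in LPS mice (median log2 change 0.12), and 2 fell in co-treated against LPS mice (median -0.22). Myof, a membrane repair protein, averaged 4.83 ± 0.682 CPM in co-treated, 13.3 ± 5.62 CPM in LPS and 5.73 ± 1.94 CPM in control mice, and both its changes passed (-1.47, adjusted p = 0.0052, and 1.22, adjusted p = 0.0050). Ajuba, a LIM domain protein that binds LATS kinases, changed by -0.90 and 0.60 in the same comparisons (adjusted p = 0.0080 and 0.0332). F3, the tissue factor that starts coagulation, was the 1 that fell in LPS mice (-0.36, adjusted p = 0.0415). Among 17 core Hippo and MRTF-SRF genes tested, 4 rose in LPS mice (median 0.26), among them the YAP partner Tead4 (1.72, adjusted p = 0.000525) and Wwtr1, the gene of TAZ (0.39, adjusted p = 0.0051). Tead1 alone of that list fell in co-treated against LPS mice (-0.60, adjusted p = 0.0125).

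Klf2 and Klf4 themselves were not called by edgeR over all libraries. Of 12 targets of KLF2 and KLF4 in endothelium under flow tested, 6 rose and 1 fell in LPS mice (median 0.74), and 5 fell in co-treated against LPS mice (median -0.69). Nos3, the endothelial nitric oxide synthase, averaged 14.3 ± 0.965 CPM in co-treated, 26.0 ± 7.39 CPM in LPS and 11.03 ± 2.77 CPM in control mice (-0.86, adjusted p = 0.0106, and 1.24, adjusted p = 8.16e-05). Ace, which makes angiotensin II, and Cav1, the coat protein of caveolae, also fell in co-treated against LPS mice (-1.07, adjusted p = 0.0117, and -0.66, adjusted p = 0.0203). Both inducible and repressed targets are in the list, and endothelial markers rose in the same LPS libraries. Of 14 early TGF-beta targets and pathway genes tested, 7 rose and 1 fell in LPS mice (median 0.51) and 2 fell in co-treated against LPS mice (median -0.33). Smad6, an inhibitory SMAD, was at 0.78 (adjusted p = 0.0314) in LPS against control and at -1.22 (adjusted p = 0.0061) in co-treated against LPS mice, and the ligand gene Tgfb1 rose in LPS mice (1.29, adjusted p = 4.90e-06). Of 11 receptors of thrombospondin 1 and CCN proteins tested, 5 rose in LPS mice (median 0.37), with the integrin subunit genes Itgb5 (1.10), Itga6 (0.79) and Itga5 (1.34) among them, and Itgb1 fell in co-treated against LPS mice (-0.38, adjusted p = 0.0363). Within bulb-poor libraries none of the calls of lower genes in co-treated against LPS mice was kept in any of these 6 lists by edgeR, with 2 LPS libraries left. In LPS against control the genes called higher there were 1 of the other matricellular genes, 1 YAP and TAZ target, 2 core Hippo and MRTF-SRF genes, 3 targets of KLF2 and KLF4, 3 TGF-beta genes and 2 receptors. Among all 17753 genes tested in bulb-poor libraries, 722 were called higher in LPS against control and 21 lower in co-treated against LPS.

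Among the lists, the activity-regulated genes of neurons held the most genes that fell in LPS mice. Of 24 tested, 15 fell and 0 rose there (median log2 change -0.71, with 1 higher at an unadjusted p under 0.05, 0 by DESeq2 and 1 by limma-voom), and 11 rose in co-treated against LPS mice (median 0.52). Egr2, a zinc finger immediate-early factor, averaged 25.7 ± 2.53 CPM in co-treated, 10.05 ± 1.72 CPM in LPS and 27.8 ± 2.53 CPM in control mice. Arc, which acts at synapses, averaged 360.1 ± 44.1 CPM in co-treated, 130.7 ± 36.1 CPM in LPS and 301.7 ± 41.9 CPM in control mice. Fos averaged 61.0 ± 7.14 CPM in co-treated, 32.0 ± 12.5 CPM in LPS and 102.4 ± 27.0 CPM in control mice (-1.68 in LPS against control). In bulb-poor libraries 12 of the 24 were called lower in LPS mice and 7 higher in co-treated against LPS mice. The counts over all 17753 genes tested there were 126 lower in LPS mice and 14 higher in co-treated against LPS mice.

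Close relatives of the 10 genes were read in co-treated against LPS and in LPS against control. Calls over all genes covered 0.287% as higher and 1.68% as lower in the first. In the second they covered 8.47% as higher and 2.44% as lower. Of 11 other KLF genes tested, none was called in either of these comparisons by edgeR or DESeq2, with medians of 0.02 in co-treated against LPS and -0.01 in LPS against control. At an unadjusted p under 0.05, 1 was higher and 2 lower in co-treated against LPS and 2 higher in LPS against control, and limma-voom called 2 lower and 2 higher in these. Klf9, a glucocorticoid-responsive member and the most abundant of them, averaged 214.2 ± 27.9 CPM in co-treated, 211.3 ± 22.4 CPM in LPS and 221.8 ± 17.6 CPM in control mice. Of 11 C/EBP, BTG and IER relatives, 2 rose and 1 fell in LPS mice: Cebpa (1.11, adjusted p = 2.84e-05), Ier3 (0.89, adjusted p = 0.0055) and the BTG family gene Tob2 (-0.51, adjusted p = 0.0128). Of 19 stress and mitogen immediate-early genes, 2 rose (Socs3, a cytokine signal inhibitor, at 1.11, and the kinase gene Pim1 at 0.65) and 2 fell (Gadd45g at -0.87 and Errfi1 at -0.34) in LPS mice.

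**Figure D4:**
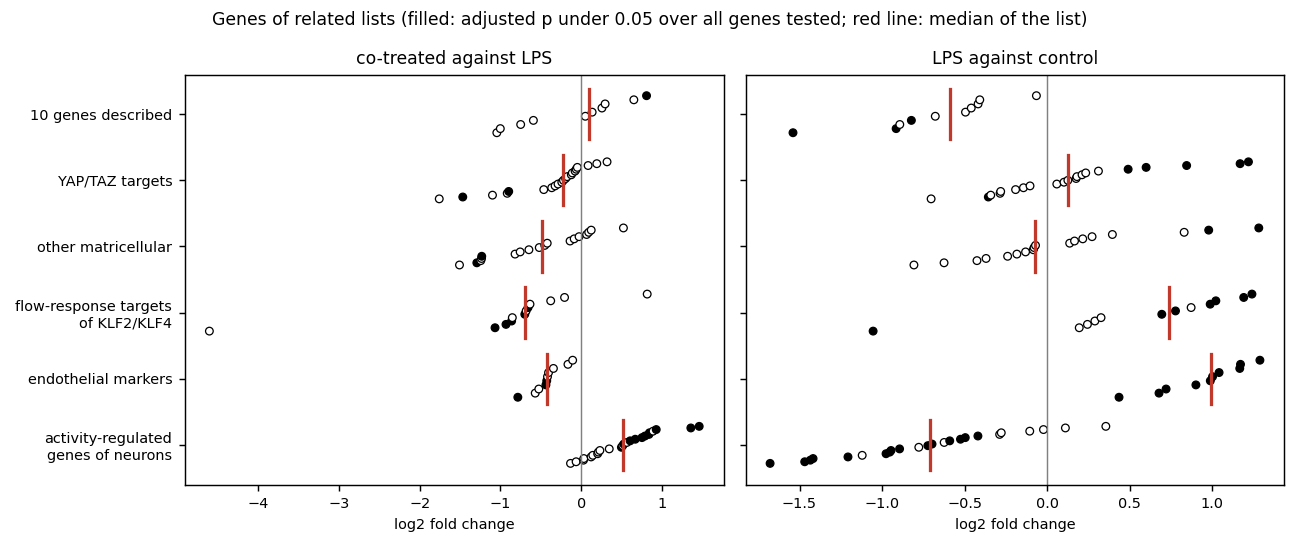
Fitted log2 change of each tested gene of the set of 10 and of 5 related lists (rows), in co-treated against LPS and in LPS against control (panels), with the list median as a red line and called genes filled. The activity-regulated genes lie mostly below 0 in LPS against control (median -0.71) and above 0 in co-treated against LPS (median 0.52), while the targets of KLF2 and KLF4 lie the other way (0.74 and -0.69).

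Of 12861 protein-coding genes outside the set with a mean log2 CPM of at least 1, the 6 most like its mean standardised level across the 19 libraries were Sik1 (Pearson's r 0.84, Spearman's rho 0.85), Tob2 (0.84 and 0.79), Zkscan2 (0.83 and 0.75), Tob1 (0.82 and 0.79), Fibin (0.82 and 0.70) and Adamts1 (0.82 and 0.61). Sik1 encodes a salt-inducible kinase and Adamts1 a secreted metalloproteinase. The likeness includes the group differences that chose the genes.

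In the deposited table's coordinates, whose build is not given in the sources used here, Ccn1 (ENSMUSG00000028195) lies on chromosome 3 at 145352731 to 145355736 on the minus strand and Btg2 (ENSMUSG00000020423) on chromosome 1 at 134002908 to 134006858 on the minus strand. Ccn2 (ENSMUSG00000019997) lies on chromosome 10 at 24471340 to 24474581, Thbs1 (ENSMUSG00000040152) on chromosome 2 at 117942357 to 117957614 and Klf10 (ENSMUSG00000037465) on chromosome 15 at 38291707 to 38300950, the last on the minus strand. Each value is the gene's whole count, with exons not split out. Ccn2, Thbs1 and Cebpd overlap another gene on the opposite strand, the noncoding Gm15270 (mean 1.16 CPM) and Gm29233 (0 counts) and the protein-coding Spidr (mean 3.61 CPM, beside 7.82 CPM for Cebpd). The kit marks strand, but the strand setting of the counting is not given in the sources used here, so Cebpd values are uncertain in that respect.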

How the data were processed

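Total RNA was extracted with TRIzol, and libraries were made with a stranded poly(A) kit, per the labels' protocols. Per the submitters' processing notes, fastp, HISAT2, StringTie, RSEM and DESeq2 were used. Their versions, the genome build and the strand setting are not given in the sources used here. The deposited values, labelled featureCounts (a tool not among those listed), are raw whole-number counts per gene for 19 libraries. From these, CPM on TMM-scaled library sizes and the edgeR 4.0.16 quasi-likelihood test (R 4.3.3, filterByExpr by group, robust, 1 mean per group, no covariate) were computed, with Benjamini-Hochberg adjustment over 17757 genes and calls at an adjusted p under 0.05. The self-test used simulated data. No 2 libraries of a group agreed within sampling noise (smallest chi-square per degree of freedom 2.42). DESeq2 1.42.0, limma 3.58.1, other scalings and filters, a replicate block, a bulb covariate, bulb-poor libraries (Cdhr1 under 20 CPM) and leaving out each library were alternatives. The 10 genes and all lists were chosen with earlier results of these data known. Named genes were the 10, up to 3 genes per direction of each related list by smallest p in the 2 main comparisons (the most abundant member where none was called), and the 6 genes most like the set. A list gene that the rule would name is not reported here.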

Additional observations from a re-analysis of the deposited data

Results flagged for a closer look

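Single libraries stood apart in 2 of 40 gene-by-group sets, judged by the gap to the nearest library relative to the group's range, and chance alone gives about 1 in 20. Klf4 was at 19.5 CPM in LPS replicate 2, where the other 4 LPS libraries were at 9.17 to 12.1 CPM. Btg2 was at 39.3 CPM in LPS replicate 4, where the other 4 were at 19.2 to 24.1 CPM. Both libraries are bulb-rich, and both also held the highest Apold1 values of their group.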

How the results depend on the processing

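Of 1160 alternative values of the 10 genes in the 4 tested comparisons, 1054 kept their direction and their side of the threshold, 38 lost a call, 45 gained one and 23 changed sign. No value that changed sign had been called. The cause was not tested except where fewer libraries or genes were used.

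Genes of the set called higher in co-treated against LPS were 1, with 3 by limma-voom, 0 with the bulb covariate and 0 to 1 when 1 library was left out. Those called lower were 0, with 1 by DESeq2, 2 by limma-voom and 0 to 2 when 1 library was left out. In LPS against control 3 were lower, with 7 by limma-voom, 6 with the bulb covariate, 5 in bulb-poor libraries and 2 to 5 when 1 library was left out. In co-treated against control 0 were higher and 4 lower, with 1 higher by limma-voom, 2 lower with no expression filter, 1 lower with the bulb covariate, and 0 to 1 higher and 1 to 5 lower when 1 library was left out. In co-treated against sedanolide 0 were higher, with 3 by limma-voom, 2 with only those groups in the fit, 1 with the bulb covariate, 1 in bulb-poor libraries and 0 to 1 when 1 library was left out.

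No label says that the replicate numbers pair libraries. Over 27 same-number pairs the correlation of deviations ran between -0.57 and 0.29, 4 of them over 0.1. Of the 19 libraries, 1 was closest to its own number. These deviations also carry bulb content, so the check cannot exclude a pairing. With the replicate number as a block, 0 genes of the set were higher in co-treated against LPS (Klf10 0.81, adjusted p = 0.0647), 2 were lower in LPS against control (Ccn1 and Btg2), 1 was lower in co-treated against control (Ccn2) and 0 were called in co-treated against sedanolide. Over all genes the block gave 22 higher and 123 lower in co-treated against LPS, 180 lower in LPS against control, 686 higher and 268 lower in co-treated against control and 34 lower in co-treated against sedanolide.

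Values that changed sign in bulb-poor libraries were Thbs1 (0.012) and Apold1 (0.55) in co-treated against LPS, Cebpd in LPS against control (0.45) and in co-treated against control (0.040), and Ccn2 (0.13) and Klf10 (-0.052) in co-treated against sedanolide. With the bulb covariate they were Apold1 in co-treated against LPS (0.28), Cebpd in LPS against control (0.094), and Ccn2 (0.11) and Klf10 (-0.062) in co-treated against sedanolide, and by limma-voom Thbs1 in the last (-0.094). With 1 library left out, Klf4 in co-treated against LPS ranged between -0.042 and 0.27, Cebpd in LPS against control between -0.34 and 0.35, and in co-treated against sedanolide Ccn2 between -0.27 and 0.056, Thbs1 between -0.069 and 0.15, Apold1 between -0.088 and 0.38 and Klf10 between -0.034 and 0.16. The untested change of Klf4 in sedanolide against control ranged between -0.30 and 0.098, and its difference between the 2 sedanolide changes reached -0.046, with the sign of both changed without control replicate 2.

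Over all genes, calls in co-treated against LPS (51 higher, 299 lower) became 202 and 710 by DESeq2, 978 and 1669 by limma-voom, 28 and 111 with the bulb covariate, 14 and 21 in bulb-poor libraries, 158 and 565 with only those groups in the fit, and 26 to 113 and 113 to 520 with 1 library left out. Those in LPS against control (1504 and 434) became 2941 and 1562 by limma-voom, 1649 and 666 by DESeq2, 2036 and 815 with the covariate, 722 and 126 in bulb-poor libraries, 968 and 146 with only those groups, and 1108 to 1816 and 200 to 662 with 1 left out. Those in co-treated against control (1133 and 832) became 2728 and 2056, 1430 and 1315, 776 and 315, 475 and 140, and 753 and 616 in the same order, 814 and 430 with no filter, and 614 to 1544 and 209 to 1363 with 1 left out. Those in co-treated against sedanolide (904 and 86) became 2201 and 1312 by limma-voom, 1016 and 172 by DESeq2, 1025 and 133 with the covariate, 823 and 48 in bulb-poor libraries, 827 and 44 with no filter, 961 and 55 with upper-quartile scaling, and 719 to 1107 and 35 to 140 with 1 left out. Thbs1, at 31 to 219 counts a library, is the gene of the set with the fewest counts.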
